A study of Homo sapiens with 30 samples.

Results

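Full-length myc-tagged LARP6 (FL) was mapped on RNA by iCLIP in U-87 MG cells, an established human glioblastoma line, and its binding was set against the RNA of the same cell line. iCLIP crosslinks protein to RNA with UV-C light and marks the crosslinked base by the end of the cDNA. The members described were all 14334 peaks of the FL list, of 48311 peaks in the lists of 5 LARP6 variants, and each peak carries a score that the study summed over 3 FL samples. The FL, ΔNTR, ΔCTR, ΔNTD and ΔLaMod lines were transduced, puromycin-selected cells. They carried a codon-optimised LARP6 construct with an N-terminal myc tag on a lentiviral vector, and doxycycline at 60 ng/mL induced it over 24 h. Endogenous LARP6, which has no tag, had not been removed from these cells. ΔNTR lacks the N-terminal region and ΔCTR the C-terminal region. ΔLaMod lacks the La-module, the RNA-binding unit described below, and ΔNTD lacks both it and the N-terminal region. Parental U-87 MG cells, listed with the same doxycycline dose and time, were the negative control. Peaks called in them had already been removed from the FL list.

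Peaks were assigned by their centre to a gene on the same strand, and 23 lay in no gene. The 4874 genes with a peak were compared with 1 total RNA library of the FL line (paired reads of 150 nt, 27935221 counts in genes). The comparison used the 3348 protein-coding genes with at least 2000 input counts, which held 79.5% of the summed score. A further 15.5% lay in protein-coding genes under that minimum and 2.90% in lncRNAs. The cells' identity was read from the input: VIM (197572 counts) and CD44 (58874) were abundant and NES was low (1567), whereas the glial and glioma markers GFAP, SOX2 and S100B were at 1, 1 and 0 counts and OLIG2 at 41. The input thus carried mesenchymal markers and lacked the defining glial ones. Of markers of other cell types, SNAP25 had 1719 counts, SYT1 261, PECAM1 46, RBFOX3 2 and PTPRC 1.

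LARP6 belongs to the La-related proteins, which share the La-module, a La motif joined to an RNA recognition motif. It is best known for binding a stem-loop around the start codon of the mRNAs of type I collagen, and it has also been tied to the localisation of mRNAs, those of ribosomal proteins among them, to cell protrusions. An RNA-binding protein that touches most mRNAs takes more crosslinks on an abundant mRNA than on a rare one, so a high score alone does not separate a preferred mRNA from a plentiful one. The question here was which mRNAs took more or less FL score than their abundance gave them.

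For each gene the expected score was its share of the input counts times the summed score of all genes compared, which came to 1 unit of score for every 259.9 counts. Counts and scores both grow with the length of an mRNA, so their ratio carries no further length correction. Because the FL list pools its replicates and the input is 1 library, no ratio could be tested against replicate spread. Intervals given are exact Poisson intervals at 95% on the score and cover counting error only, and the spread of the input is shown by repeating a ratio with each of the 6 long-RNA inputs (parental, FL and the 4 deletion lines ΔNTR, ΔCTR, ΔNTD and ΔLaMod). Over those inputs a gene's share of counts varied with a median coefficient of variation of 5.40%.

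The highest-scored peaks of the 6 mRNAs with the highest ratio, and of COL1A1 as the known target, are shown first, since in 5 of the 6 one peak holds over 60% of the score. Each line gives 30 bases of the GRCh38 transcript strand around the peak centre, 5′ to 3′, with the bases inside the peak in capitals.

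CAMK2N1 chr1:20485564-20485593 (minus strand, 5'UTR): GCGCAGCGCAGCCGCGGGCGCTCTCCGGGC
IST1 chr16:71928385-71928414 (plus strand, 3'UTR): ctgCAGGGCACTGTCCCACCGGGATCCAgt
SCAMP1 chr5:78476599-78476628 (plus strand, 3'UTR): gtgATTTTTAACAGAGGTATTAAAGGCTag
PTPRN chr2:219289957-219289986 (minus strand, 3'UTR): aggacaTGGGTAGCAATTCTACCCAgagcc
TMBIM1 chr2:218274362-218274391 (minus strand, 3'UTR): ctgcctTCTTTGTAATATTAAGTGccttga
HNRNPH1 chr5:179614713-179614742 (minus strand, 3'UTR): tgtgatTTATGCTTACTCTAAGTGGaaatc
COL1A1 chr17:50201541-50201570 (minus strand, 5'UTR): gAGCGGACGCTAACCCCCTCCCCAGCCACA

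The sites had little in common in base make-up. The CAMK2N1 and COL1A1 sites lay in 5'UTRs with 86.7% and 70% GC, and the CAMK2N1 peak covered the whole window. The sites of SCAMP1, HNRNPH1 and TMBIM1 lay in 3'UTRs with 33.3%, 33.3% and 36.7% GC, and those of PTPRN and IST1 lay between, with 53.3% and 66.7%. Over all 2936 exonic peaks of genes at least 2-fold above expectation, C and T made up 52.5% of the same window against 49.8% of the whole transcripts. In the 1554 peaks of genes at least 2-fold below expectation they made up 51.7% against 48.8%, so the shift of the window from its transcripts was alike in both classes. The classes differed in how dense and how high the peaks were. There were 1.68 peaks per kb with a mean score of 12.8 in the first class and 0.176 per kb with 4.01 in the second, which the choice of the classes by score fixes in part.

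Score followed abundance only loosely. Of 3348 genes, 381 (11.4%) were at least 2-fold above expectation and 1773 (53.0%) at least 2-fold below, 789 of them with no peak. The first set held 48.0% of the score on 12.5% of the input counts, and the second 8.40% of the score on 44.2% of the counts. 50% of the score sat in 203 genes, whereas 50% of the counts needed 533. In 186 of the 381 genes above (48.8%), 1 peak held at least 50% of the gene's score. This was not particular to them: the share was 46.8% of the 1194 genes within 2-fold. It was 85.2% of the 984 genes below that had a peak, where the median number of peaks was 1. The median gene stood at 0.442 of its expectation. Of the genes above, 336 remained at least 2-fold above with every one of the 6 inputs, and of those below 1701.

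**Figure D1:**
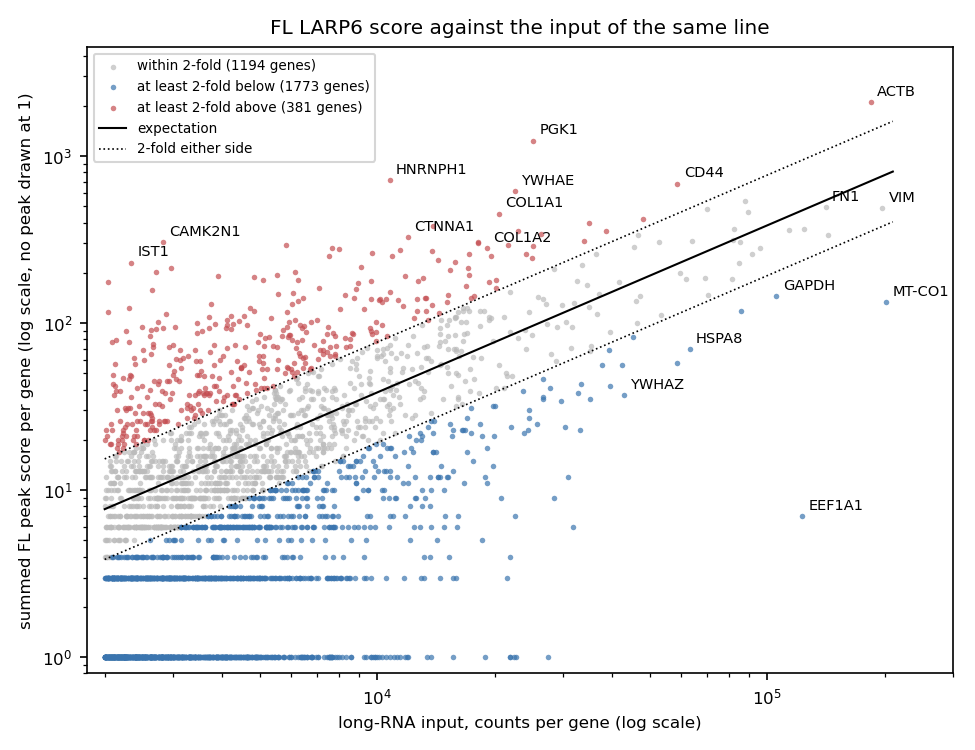
Summed FL peak score per gene (vertical axis, log scale, genes without a peak drawn at 1) against the gene's counts in the FL long-RNA input (horizontal axis, log scale). Each point is 1 of 3348 protein-coding genes, the solid line is the expectation and the dotted lines lie 2-fold either side. PGK1, HNRNPH1 and CAMK2N1 lie far above the line, VIM and FN1 near it, and EEF1A1 far below.

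Scarcer mRNAs stood slightly lower. In deciles of genes by input count, summed score over expectation was 0.769 in the decile with the fewest counts (2000 to 2238) and 1.07 to 1.11 in the upper 3 deciles. The share of genes without a peak fell from 43.9% to 4.18% from the lowest to the highest decile. The ratio of a single gene near the minimum count is coarse, since no peak scores below 3.

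Properties of the genome and of the annotation moved with low scores and are given before the single genes. Peaks were almost absent where annotated genes overlap on the same strand: 10 of 14334 FL peaks were centred at such a position. Of 99 genes with at least 50% of their transcript inside the span of a second gene, 75 had no peak, against 676 of 3070 genes with no such overlap. The share of an mRNA's 31-mers that occurs once in the genome moved with the score as well. Summed score over expectation was 1.12 in 2560 genes with at least 90% unique 31-mers and 0.333 in 133 genes with under 50%. Reads that map to several places leave the score and the input counts by rules that may differ between the assays, and their part in the low scores was not tested. Ratios were therefore also computed over 2364 unambiguous genes, those with at least 90% unique 31-mers and no second gene on the strand over any exonic base, where 10.7% were at least 2-fold above and 52.7% at least 2-fold below. This set was chosen after the data were seen.

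The 10 highest ratios ran from 13.02 to 28.2. CAMK2N1, which encodes an inhibitor of the kinase CaMKII, scored 305 against 10.8 expected from 2816 counts, a ratio of 28.2 (95% interval 25.1 to 31.5) and of 23.3 to 34.5 over the 6 inputs. Most of it, 223, lay in the 5'UTR, which has 831 nt, in adjacent peaks at chr1:20485563-20485594 and chr1:20485612-20485653 among others.

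In the mRNAs that followed, the highest peak lay in the 3'UTR. IST1, which takes part in endosomal sorting, scored 230 against 9.01 expected, all in the 3'UTR and 64.3% of it in 1 peak. SCAMP1, a carrier membrane protein of the secretory pathway, scored 176 against 7.85, with 90.3% in 1 peak. PTPRN, a transmembrane protein of secretory granules, scored 201 against 10.4. TMBIM1, a transmembrane BAX inhibitor motif protein, scored 213 against 11.4. These 4 mRNAs followed CAMK2N1 directly in the order of ratio. HNRNPH1, a splicing regulator, came next with 720 against 41.4, the whole of it in the 19 nt at chr5:179614718-179614736. UGP2, the enzyme that makes UDP-glucose, also had a single peak, of 158, in its 3'UTR of 336 nt.

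ERCC1, a subunit of a DNA repair nuclease, was of another kind. Its score of 123 against 8.90 expected lay in intronic sequence, 116 of it in 1 peak at chr19:45478642-45478661, and was 0 when only exonic peaks were counted. JPT2 and ABI2, a regulator of actin assembly, complete the 10 with ratios of 14.9 and 13.02, from scores of 117 and 293. All 10 of these mRNAs were also above expectation in both deletion lines, each set against its own input. The ratios were 4.17 to 12.7 in ΔNTR and 5.72 to 18.8 in ΔCTR. These 10 were picked by their FL ratio, and the lists share the parental subtraction. Of all 381 genes at least 2-fold above in FL, 236 were so in ΔNTR and 276 in ΔCTR. Of the 1194 genes within 2-fold in FL 102 and 90 were, and of the 1773 below 8 and 2.

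The 10 highest scores were a mixture of preferred and merely abundant mRNAs. ACTB, the mRNA of beta-actin and a classical localised mRNA, led with 2098 from 184469 counts, a ratio of 2.96 (95% interval 2.83 to 3.09). All of it came from 1 peak of 32 nt in the 3'UTR at chr7:5527485-5527516, 353 nt before the end of the transcript. The glycolytic enzyme PGK1 scored 1238, a ratio of 12.8 (95% interval 12.1 to 13.6) and of 9.38 to 16.8 over the 6 inputs. Of its score 54.6% lay in 1 peak of its 3'UTR at chrX:78126080-78126101. A further 359 lay outside the transcript used, with intronic peaks of 137 and 107 in it. The 14-3-3 protein YWHAE scored 620, a ratio of 7.15 (95% interval 6.595 to 7.73), with 89.5% in 1 peak of its CDS at chr17:1400079-1400097, near the start codon. In contrast, the hyaluronan receptor CD44 reached 684 through 46 peaks, none above 70, at a ratio of 3.02 (95% interval 2.80 to 3.25).

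The rest of the 10 lay closer to expectation. The pyruvate kinase PKM stood at 1.60, the transmembrane protein DCBLD2 at 1.79 and the collagen VI chain COL6A3 at 1.34. The fibronectin mRNA FN1 took a score of 493 in 66 peaks where 543 was expected, a ratio of 0.907 (95% interval 0.829 to 0.991). The mRNA of the intermediate filament protein vimentin, VIM, with 197572 counts the second most abundant compared, took 489 where 760.2 was expected, a ratio of 0.643 (95% interval 0.588 to 0.703). VIM and FN1 would stand among the chief targets by score and do not by ratio. With the other inputs the ratio of VIM was 0.565 to 0.643 and that of FN1 0.802 to 1.07.

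**Figure D2:**
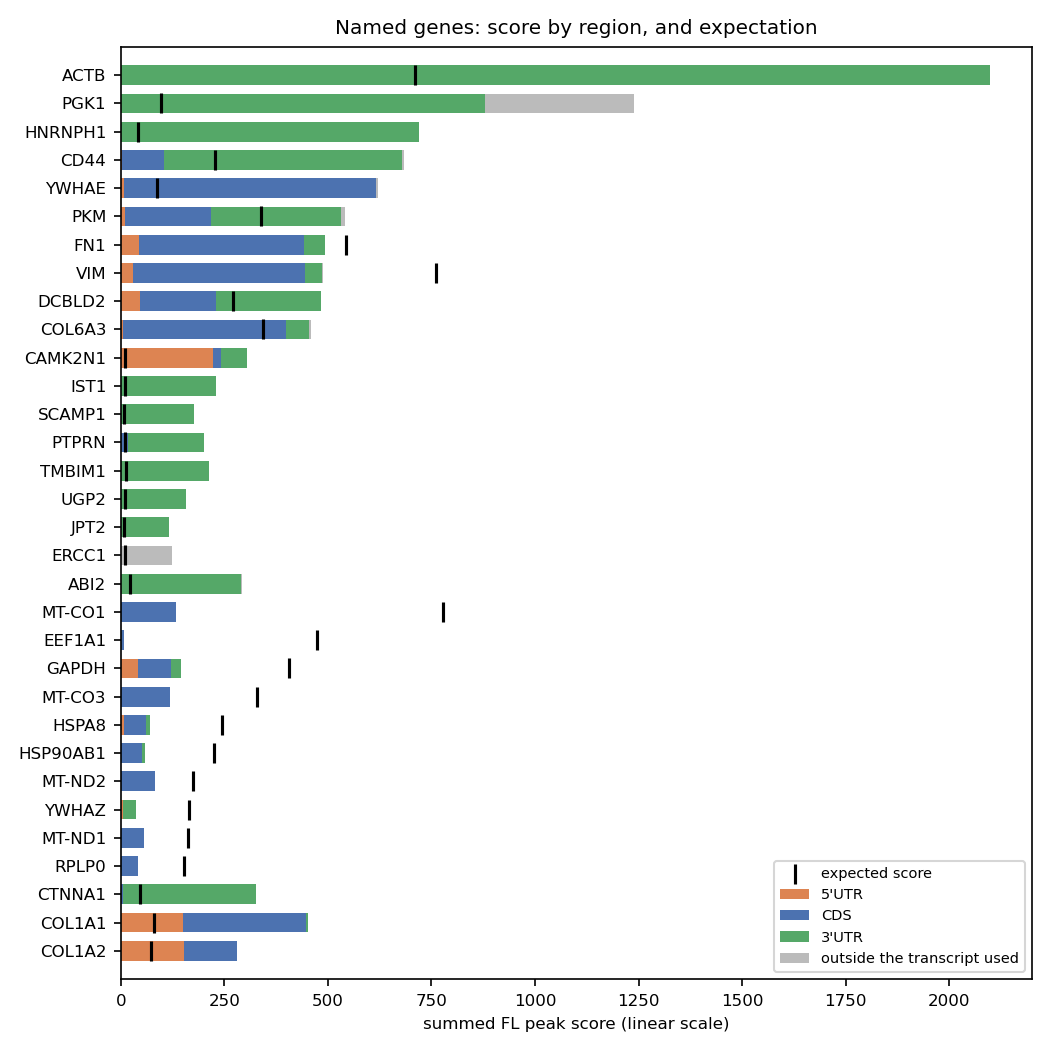
Summed FL peak score (horizontal axis, linear scale) of the genes with the highest score, the highest ratio and the largest input count among those at least 2-fold below expectation, and of CTNNA1, COL1A1 and COL1A2. Bars are divided by region of the transcript used, grey marks peaks outside it, and the black tick is the expected score. ACTB (2098) and HNRNPH1 (720) lie wholly in the 3'UTR, and the ticks of MT-CO1 (777) and EEF1A1 (473) stand far to the right of their bars.

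The known targets differed from one another. COL1A1, the first chain of type I collagen, scored 452 in 47 peaks against 78.8 expected, a ratio of 5.73 (95% interval 5.22 to 6.29). Its input counts ran from 15719 to 27867 over the 6 lines, and the ratio accordingly from 4.20 to 6.64. COL1A2 scored 280 against 73.5, a ratio of 3.81 (95% interval 3.38 to 4.28). In both, the 5'UTR was prominent, with 151 of the score on 118 nt in COL1A1 and 152 on 137 nt in COL1A2, and their highest peaks, at chr17:50201541-50201569 and chr7:94394962-94395003, lay 76 and 87 nt from the transcript start. The ratio of COL1A1 was 5.86 in ΔNTR and 5.82 in ΔCTR, each against its own input. CTNNA1, which encodes alpha-catenin, scored 327 against 46.0, a ratio of 7.10 (95% interval 6.35 to 7.92), of which 305 came from 1 peak in the 3'UTR at chr5:138934168-138934189. The study chose CTNNA1 from these iCLIP data for its strong and focused FL binding, so its values are no independent check. COL3A1 had 2 input counts and no peak, and the endogenous LARP6 mRNA, with 1712 counts under the minimum, scored 31.

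The 10 most abundant mRNAs at least 2-fold below expectation were MT-CO1, EEF1A1, GAPDH, MT-CO3, HSPA8, HSP90AB1, MT-ND2, YWHAZ, MT-ND1 and RPLP0. EEF1A1, the elongation factor that brings tRNA to the ribosome, scored 7 against 473 expected from 122850 counts, a ratio of 0.0148, the lowest of the 10. The glycolytic enzyme GAPDH scored 145 against 406. The chaperones HSPA8 and HSP90AB1 scored 70 against 244 and 58 against 226, and the ribosomal stalk protein RPLP0 42 against 152. The mitochondrially encoded MT-CO1 scored 133 against 777, and MT-CO3, MT-ND2 and MT-ND1 had ratios of 0.361, 0.476 and 0.343. The 14-3-3 mRNA YWHAZ, at 0.224, contrasts with YWHAE at 7.15. All 10 share many 31-mers with other places in the genome: 19.3 to 66.3% of their 31-mers were unique, against a median of 97.6% over all genes at least 2-fold below. Low uniqueness did not always go with a low score, since it was 53.0% for ACTB and 66.6% for YWHAE. The part of the parental subtraction in the low scores of the 10 was not tested.

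Grouped by function, the excess lay with mRNAs of the cell surface, the matrix and signalling, and the deficit with those of translation and protein quality control. Of 66 lists with at least 3 genes compared, 16 were at least 1.5-fold above expectation and 21 at least 1.5-fold below. Many of these excesses rest on 1 mRNA: without the highest-scored gene of each list 5 lists were above and 32 below, and by number of peaks 9 were above. Over the 100 genes of the matrix and adhesion lists, summed score over expectation was 1.60 and the median gene stood at 1.05, against 0.442 over all genes. In this group 23 genes (23%) were at least 2-fold above, against 11.4% of all. For the 75 signalling genes the ratio was 1.55, the median 0.640, and 19 genes (25.3%) were at least 2-fold above. For the 169 translation genes the ratio was 0.386, the median 0.165, and 131 genes (77.5%) were at least 2-fold below, against 53.0% of all. For the 98 genes of protein quality control the ratio was 0.430, the median 0.282, and 71 genes (72.4%) were at least 2-fold below. Among unambiguous genes the ratios of these groups, in the order given, were 1.38, 1.47, 0.536 and 0.515.

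**Figure D3:**
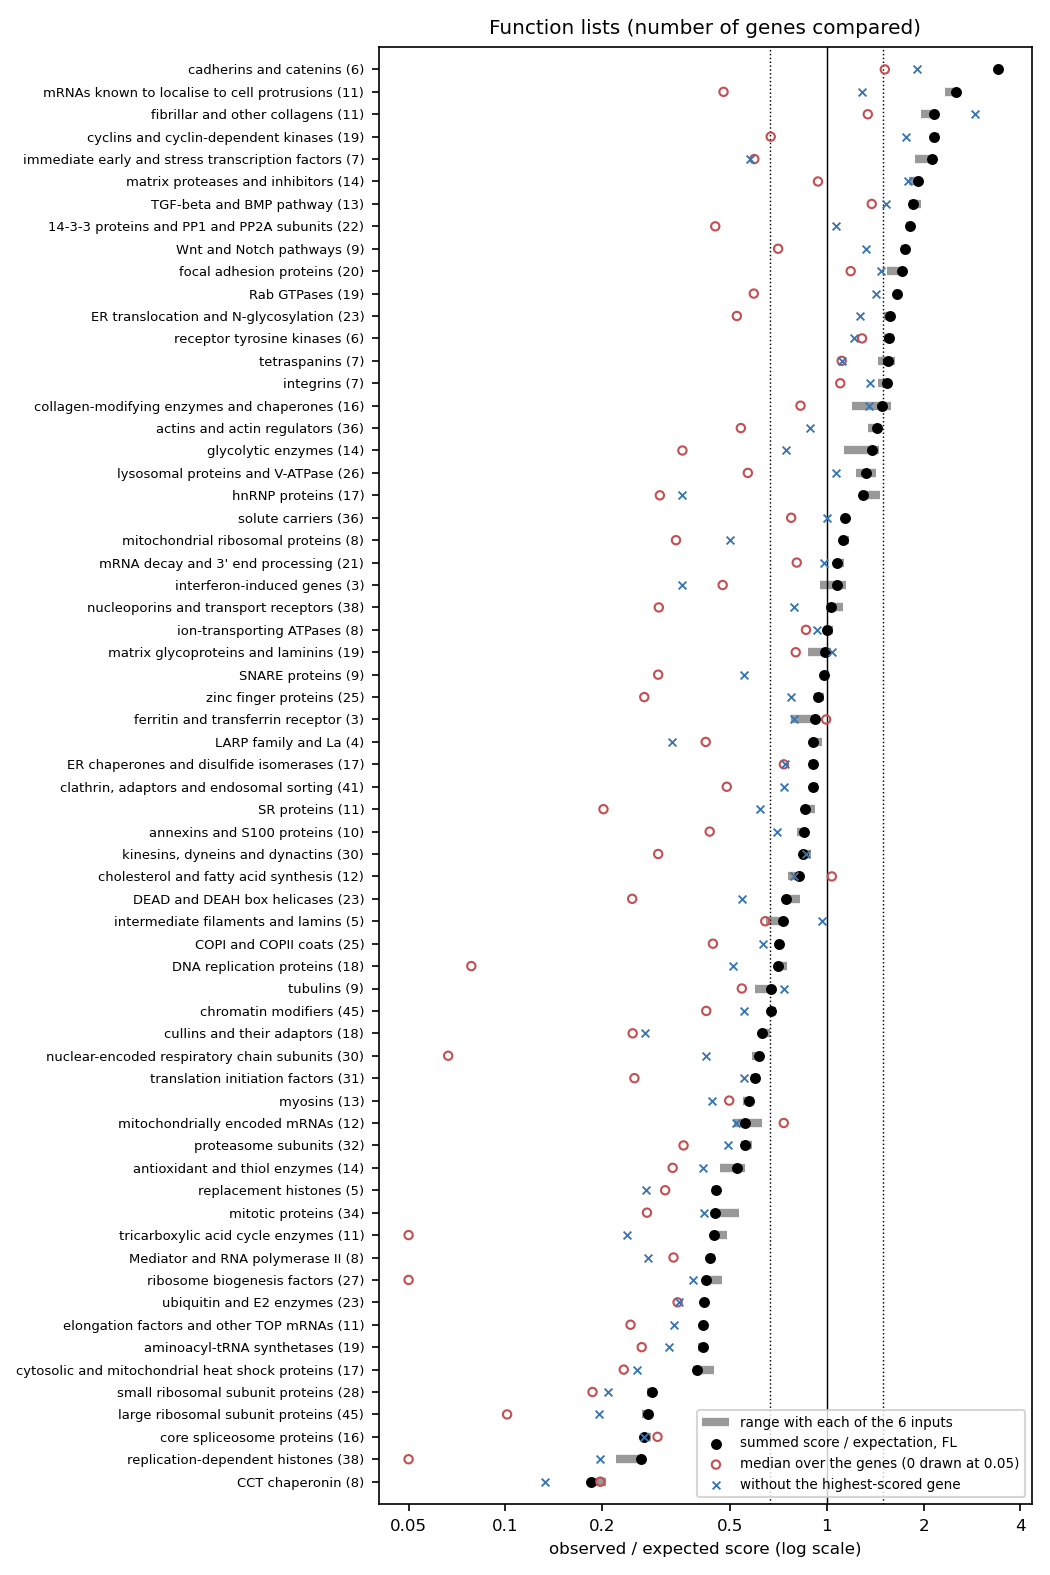
Summed FL score over expectation (horizontal axis, log scale) for the function lists shown, with the number of genes compared. Black points are the lists, grey bars the range when each of the 6 long-RNA inputs gives the expectation, red circles the median over the genes (those of 0 at the left edge) and blue crosses the ratio without the highest-scored gene. The dotted lines mark 1.5-fold, and for most of the upper lists, collagens excepted, the crosses and circles lie to the left of the points, as for the immediate early factors, which stood at 2.12 and at 0.577 without FOSL1.

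Among matrix and adhesion mRNAs, cadherins and catenins stood highest at 3.40 (95% interval 3.12 to 3.70), and 2 of 6 genes were at least 2-fold above and 0 at least 2-fold below expectation, against 11.4% and 53.0% of all genes. CTNNA1 gave 60% of their score, and without it the ratio was 1.91. CTNNB1, the beta-catenin that binds cadherins and carries Wnt signals, stood at 2.86 (95% interval 2.40 to 3.37), and PKP4 was lowest at 0.573. Collagens stood at 2.15 (95% interval 2.04 to 2.26), with 1.96 to 2.22 over the 6 inputs and a median of 1.34. COL6A3, the largest input among them, lay near expectation, so that without it the ratio of the list was higher, 2.89. COL16A1 was lowest at 0.369, from a score of 3. The collagen-modifying enzymes and chaperones stood at 1.49 (95% interval 1.37 to 1.61), with 1.20 to 1.58 over the 6 inputs. Among them the prolyl 4-hydroxylase subunit P4HA1 stood at 3.52, P4HB at 2.09 and the lysyl hydroxylase PLOD2 at 2.08.

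The mRNAs of matrix proteases and inhibitors stood at 1.93 (95% interval 1.82 to 2.04), and 4 of 14 genes were at least 2-fold above and 4 at least 2-fold below expectation, against 11.4% and 53.0% of all genes. The gelatinase MMP2 scored 419 against 185 expected, whereas ADAM12 reached 4.24 and ADAMTS1 only 0.204. Focal adhesion mRNAs stood at 1.71 (95% interval 1.65 to 1.78), with CD44 at 3.02, the adaptor LIMS1 at 5.60, filamin FLNA at 1.15 and TRIP6 without a peak. For integrins (1.54) no gene was 2-fold above: ITGA3 stood at 1.88 and ITGB1 at 1.85. ITGB3 had no peak, and 98.8% of its transcript lies inside a second gene on the strand. Tetraspanins, which organise receptors in the plasma membrane, stood at 1.55 (95% interval 1.35 to 1.78) with TSPAN5 at 7.14 and CD63 at 1.11. Matrix glycoproteins and laminins stood lower as a sum, at 0.990 (95% interval 0.942 to 1.04), with TGFBI at 0.867 and LTBP3 highest at 3.21. Their median was 0.800. Of 19 genes 3 (15.8%) were at least 2-fold above and 4 (21.1%) at least 2-fold below, against 11.4% and 53.0% of all.

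Signalling lists above expectation were the TGF-beta and BMP pathway (1.86, 95% interval 1.69 to 2.04), Wnt and Notch (1.75, 95% interval 1.60 to 1.91), receptor tyrosine kinases (1.56, 95% interval 1.41 to 1.72) and the 14-3-3 and phosphatase subunits (1.81, 95% interval 1.72 to 1.92). In the first, the receptor TGFBR2 stood at 5.15 (95% interval 4.26 to 6.18) with 112 of 116 in the 3'UTR, the latency protein LTBP1 at 2.43, the BMP antagonist GREM1 at 1.15 and the inhibitor SKIL had no peak. In the second, the receptor NOTCH2 stood at 2.54, the ligand WNT5A at 2.03 and the nuclear effector RBPJ at 2.94, and DVL3 had no peak. Of the receptor kinases, EGFR stood at 2.47, AXL at 2.36, MET at 0.815 and EPHB2 at 0.124. NOTCH2 gave 50.7% of the Wnt and Notch score and AXL 45.5% of the receptor kinase score. Without these genes the ratios were 1.32 and 1.21, and without TGFBR2 that of the first list was 1.52. The fourth list likewise rested on YWHAE, which gave 48.4% of its score: without it the ratio was 1.07. Its highest ratio was that of the myosin phosphatase subunit PPP1R12C, 9.59, nearly all of it in the CDS.

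In trafficking, Rab GTPases, which direct vesicles between membranes, stood apart from coat proteins as a sum and less so by gene. The medians were 0.592 for Rab GTPases and 0.442 for COPI and COPII coats. Of 19 Rab genes 6 (31.6%) were at least 2-fold above and 9 (47.4%) at least 2-fold below. In the coats these shares were 4.0% and 52.0%, and over all genes 11.4% and 53.0%. Rab GTPases stood at 1.65 (95% interval 1.52 to 1.80) and at 1.42 without the highest, with RAB10 at 3.76, RAB31 at 3.42, RAB27B at 0.592 and no peak in RAB35. COPI and COPII coats stood at 0.711 (95% interval 0.641 to 0.786) and clathrin, adaptors and endosomal sorting at 0.902 (95% interval 0.838 to 0.970). ER translocation and N-glycosylation stood at 1.57 (95% interval 1.47 to 1.68), where the oligosaccharyltransferase subunit DAD1 reached 8.67 and SEC61A1, the channel itself, 1.68, lysosomal proteins and the V-ATPase stood at 1.33 (95% interval 1.23 to 1.43), with the saposin precursor PSAP at 3.502 and CTSD without a peak, and ER chaperones stood at 0.904 (95% interval 0.845 to 0.966).

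Cytoskeletal mRNAs depended on ACTB. Actins and actin regulators stood at 1.43 (95% interval 1.39 to 1.48) and at 0.885 without ACTB. The gamma-actin mRNA ACTG1, whose protein differs from beta-actin by a few residues, stood at 0.762 (95% interval 0.686 to 0.845), and radixin RDX at 7.55 from 1 peak. The 11 mRNAs known to localise to protrusions stood at 2.52 (95% interval 2.42 to 2.62), with 2.33 to 2.52 over the inputs, but 86.6% of the score was ACTB, and the ratio without ACTB was 1.29. When the highest peak of every gene was left out it was 0.271. Among 6 unambiguous genes, without ACTB, it was 1.08. The median of 0.477 was close to that of all genes. KIF1C, a motor that carries mRNAs, stood highest at 4.20. Tubulins (0.668, 95% interval 0.603 to 0.739), myosins (0.574, 95% interval 0.516 to 0.636) and intermediate filaments with lamins (0.731, 95% interval 0.680 to 0.785) lay below 1. MYH9 stood at 0.700, TUBA1B at 0.544, TUBB at 0.502, and LMNB1 had no peak on 4198 counts while LMNB2 stood at 2.33.

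Translation mRNAs took the least for their abundance over all genes compared, though not among unambiguous genes, where protein quality control stood at 0.515 against 0.536. Large-subunit ribosomal protein mRNAs stood at 0.278 (95% interval 0.257 to 0.301) and small-subunit ones at 0.286 (95% interval 0.256 to 0.318), with 0.265 to 0.278 and 0.275 to 0.290 over the 6 inputs. Of the 45 large-subunit mRNAs 37 were at least 2-fold below and 2 at least 2-fold above, and of the 28 small-subunit mRNAs 22 and 0. These shares of 82.2% and 78.6% below stand against 53.0% of all genes compared, and 11.4% of all were above. The 2 above, RPLP1 and RPLP2, both encode stalk proteins, and RPLP2, named after its value was seen, stood at 2.05 (95% interval 1.53 to 2.68). RPLP1 scored 192 against 45.4, a ratio of 4.23 (95% interval 3.65 to 4.87), and gave 31.2% of the list's score. RPS20 stood at 1.57 (95% interval 1.28 to 1.91), and RPSA at 0.241 and RPL4 at 0.181 were among those below. Ribosomal protein mRNAs have many processed pseudogenes: the median share of unique 31-mers was 61.4% and 42.6%, RPS3A with 0.871% had no peak at all on 22481 counts, and 4 large-subunit genes and fewer than 3 small-subunit genes were left among unambiguous genes. Those 4 stood at 0.223. The part of unplaced reads in the deficit of the others was not tested.

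Further translation lists are less repeated in the genome, and all but one lay below 1. The exception as a sum was mitochondrial ribosomal proteins at 1.12 (95% interval 0.918 to 1.35), where MRPS16, at 4.66, gave 62.04% of the score and the ratio without it was 0.499. Aminoacyl-tRNA synthetases, with a median of 100% unique 31-mers, stood at 0.412 (95% interval 0.350 to 0.482) and at 0.357 among 19 unambiguous genes. LARS1 had no peak on 6501 counts, IARS1 stood at 0.585 and WARS1 at 2.13. Ribosome biogenesis factors stood at 0.421 (95% interval 0.360 to 0.489). Of their 27 genes 14 (51.9%) had no peak, against 23.6% of all genes compared and 43.9% of the decile with the fewest counts. Initiation factors stood at 0.596 (95% interval 0.551 to 0.644), with EIF4G2 at 0.804, EIF4G1 at 0.606 and EIF3B at 2.31. Elongation factors and other mRNAs with a 5' terminal oligopyrimidine tract stood at 0.413 (95% interval 0.379 to 0.450). Within them EEF2, whose 31-mers are all unique, stood at 0.773 (95% interval 0.666 to 0.894) and the ribosomal scaffold RACK1 at 2.57 (95% interval 2.19 to 2.99), 134 of its 167 in 1 CDS peak.

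Protein quality control and mitochondrial energy metabolism were also below expectation. The CCT chaperonin, which folds actin and tubulin, was the lowest list at 0.185 (95% interval 0.140 to 0.239), 7 of 8 genes at least 2-fold below, against 53.0% of all. CCT2 had no peak on 8560 counts although 99.2% of its 31-mers are unique, and CCT5 stood at 0.216. Heat shock proteins stood at 0.396 (95% interval 0.361 to 0.432), proteasome subunits at 0.555 (95% interval 0.497 to 0.619) and ubiquitin with E2 enzymes at 0.414 (95% interval 0.357 to 0.478). The proteasome subunits PSMD2 and PSMD3 stood at 0.342 and 2.72. Nuclear-encoded respiratory chain mRNAs stood at 0.613 (95% interval 0.544 to 0.689), although the ATP synthase subunits ATP5F1B and ATP5F1A stood at 1.64 and 1.47. Of these 30 genes 15 (50.0%) had no peak, against 23.6% of all and 43.9% of the decile with the fewest counts. Mitochondrially encoded mRNAs stood at 0.557 (95% interval 0.529 to 0.586), from 0.171 for MT-CO1 to 3.95 for MT-ND4L.

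Glycolytic enzymes showed how far 1 mRNA can carry a list. They stood at 1.39 (95% interval 1.33 to 1.44), without PGK1 at 0.746, and among 4 unambiguous genes at 0.322, with GAPDH at 0.357 and PFKM without a peak. The iron storage mRNAs FTH1 and FTL differed, at 0.995 (95% interval 0.888 to 1.11) and 0.302 (95% interval 0.214 to 0.415). Of the score of FTH1, 201 of 313 lay in its 5'UTR, the region that holds the iron-responsive element. The transferrin receptor TFRC stood at 1.79, with 102 of 109 in the 3'UTR.

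In RNA processing, hnRNP mRNAs stood at 1.30 (95% interval 1.22 to 1.38) with HNRNPH1 and at 0.354 without it, and HNRNPA2B1 and HNRNPU stood at 0.245 and 0.319. Core spliceosome mRNAs stood at 0.270 (95% interval 0.219 to 0.330), with PRPF8 at 0.273, and kept that level without the highest gene (0.270). Among its relatives, the LARP1 mRNA stood at 1.33 (95% interval 1.07 to 1.64), LARP4 at 0.202 and SSB, the La protein itself, had no peak. In the cell cycle, cyclins and their kinases stood at 2.15 (95% interval 2.01 to 2.29), and at 1.77 without cyclin D1. Their median was 0.669. Of 19 genes 4 (21.1%) were at least 2-fold above and 9 (47.4%) at least 2-fold below, against 11.4% and 53.0% of all. Cyclin D1, CCND1, scored 397 against 134, 371 of it in the 3'UTR, and cyclin I, CCNI, 262 against 37.2, 234 of it in the 5'UTR. Mitotic proteins stood at 0.450 (95% interval 0.409 to 0.495), with MKI67 at 0.335 and TOP2A at 0.528.

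Among transcription and chromatin mRNAs, FOSL1, a subunit of AP-1, stood at 6.01 (95% interval 5.29 to 6.80) with 211 of 252 in the CDS, whereas JUN stood at 0.828 and KLF10 had no peak. Chromatin modifiers stood at 0.668 (95% interval 0.612 to 0.729) with NSD2 highest at 2.302, and zinc finger proteins at 0.941 (95% interval 0.839 to 1.05). Replication-dependent histones stood at 0.264 (95% interval 0.226 to 0.306). Of these 38 genes 20 (52.6%) had no peak, against 23.6% of all genes compared and 43.9% of the decile with the fewest counts. In 9 of the 38 at least 50% of the transcript lies inside a second gene on the strand, and the 16 unambiguous histone mRNAs stood at 0.341. H1-5 scored 17 against 54.6 and H4C3 48 against 23.5.

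Other lists lay nearer to expectation as sums, with single mRNAs far above it. Nucleoporins and transport receptors stood at 1.03 (95% interval 0.970 to 1.09) with a median of 0.300, and at 1.57 among 19 unambiguous genes. In it RANGAP1, the activator of the Ran GTPase, stood at 9.56 (95% interval 8.48 to 10.8) and the importin IPO5 at 3.92 (95% interval 3.46 to 4.43), while 27 of 38 genes were at least 2-fold below (71.1%, against 53.0% of all). Solute carriers stood at 1.13 (95% interval 1.06 to 1.21), with the phosphate transporter SLC20A1 at 1.92 and the amino acid transporter SLC38A2 at 0.383. The lactate transporter SLC16A3 stood at 6.97, with 3.31 to 12.1 over the 6 inputs. Factors of mRNA decay and 3' end processing stood at 1.08 (95% interval 0.966 to 1.19), with the CCR4-NOT scaffold CNOT1 at 1.55 and the exonuclease XRN1 without a peak.

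Further lists below 1 had their own exceptions. SR proteins, which regulate splicing, stood at 0.858 (95% interval 0.733 to 0.998), with SRSF5 at 3.81 and SRSF3 at 0.105. DEAD and DEAH box helicases stood at 0.744 (95% interval 0.671 to 0.823), with DDX3X at 2.43. Annexins and S100 proteins stood at 0.849 (95% interval 0.767 to 0.938), where the abundant ANXA2 and ANXA1 stood at 0.386 and 0.450 and S100A11 at 3.71. The dynein heavy chain DYNC1H1 stood at 0.829, from the high score of 363. Cullins and their adaptors stood at 0.628 (95% interval 0.536 to 0.731), with no peak in DDB1 or CUL4B and 99 against 16.4 expected in KLHL21. Enzymes of the tricarboxylic acid cycle stood at 0.445 (95% interval 0.349 to 0.559), with no peak in citrate synthase CS, and DNA replication proteins at 0.707 (95% interval 0.626 to 0.796), with the ribonucleotide reductase subunit RRM2 at 1.76.

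Genes at least 2-fold above expectation had a median transcript length of 3959 nt against 4253 nt in those at least 2-fold below. They had shorter CDS (1383 against 1749 nt), longer 3'UTRs (2041 against 1645 nt) and fewer exons (9 against 12). Genes within 2-fold had medians of 1656 nt of CDS, 2087.5 nt of 3'UTR and 12 exons. Long 3'UTRs were thus not particular to the genes above. Transcript length had no monotonic relation to the ratio. From the shortest to the longest quintile, summed score over expectation was 0.829, 1.07, 1.18, 1.10 and 0.920, with medians of 0.337, 0.478, 0.452, 0.502 and 0.483. The shortest quintile (297 to 2295 nt) stood at 0.829 (95% interval 0.816 to 0.841) and the longest (7416 to 34626 nt) at 0.920 (0.906 to 0.934). The shortest quintile holds 112 ribosomal protein, histone and mitochondrially encoded mRNAs with 29.7% of its counts, and these stood at 0.396. The other 558 short mRNAs stood at 1.01 as a sum, but their median of 0.362 was still below the 0.456 to 0.508 of the longer quintiles without the same lists. For the longest quintile the direction turned when peaks were counted in place of score, to 1.14, and when the highest peak of each gene was left out, to 1.06. Long mRNAs thus had more peaks, and lower ones, than their counts gave them, and short mRNAs fewer, with 0.589 of the expected number.

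The parts of the mRNA differed more. In quintiles by 3'UTR length, mRNAs with the shortest 3'UTRs (up to 605 nt) stood at 0.702 and those of the fourth quintile (2436 to 4044 nt) at 1.27. The medians were 0.322 and 0.552, and among unambiguous genes the ratios of the same quintiles were 0.755 and 1.15. By CDS length the longest quintile was lowest, at 0.872, and mRNAs with 5'UTRs up to 64 nt stood at 0.694 while the other 4 quintiles lay between 1.05 and 1.10. By GC content the richest quintile was highest, for the whole transcript (1.27) as for the 3'UTR. The quintile of mRNAs with the most GC in the 3'UTR (from 49.8%) stood at 1.25 with a median of 0.663 and 17.1% of genes at least 2-fold above. The quintile with the least stood at 0.745 with a median of 0.312 and 8.70%.

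Within mRNAs, FL score lay in 3'UTRs beyond their share of the sequence. When each gene's expectation was divided over its regions by length, 3'UTRs took 59.7% of the score against 41.4% expected, a ratio of 1.44 (95% interval 1.43 to 1.46). CDS took 35.95% against 53.8%, a ratio of 0.668 (0.660 to 0.676). 5'UTRs took 4.35% against 4.78%, a ratio of 0.910 (0.880 to 0.942). When all annotated transcripts of a gene set the regions, the 5'UTR ratio was 0.349 and those of CDS and 3'UTR were 0.800 and 1.42. The files give no input coverage along the mRNA, so the expectation assumes that input reads spread evenly over a transcript.

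The change at the stop codon was abrupt. The last 100 nt of the CDS stood at 0.479 and the first 100 nt of the 3'UTR at 1.498, or 1.36 without the CTNNA1 peak. Among unambiguous genes these values were 0.529 and 1.98. The interior of the 3'UTR stood at 1.53, and at 1.45 without the ACTB peak, whereas the last 100 nt stood at 0.327. At the other end, the first 50 nt of the transcript stood at 0.991, the rest of the 5'UTR at 0.872 and the first 100 nt of the CDS at 0.840, a value that fell to 0.641 without the YWHAE peak. The interior of the CDS stood at 0.669. In regions shorter than a pair of windows, each window took 50% of the region.

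**Figure D4:**
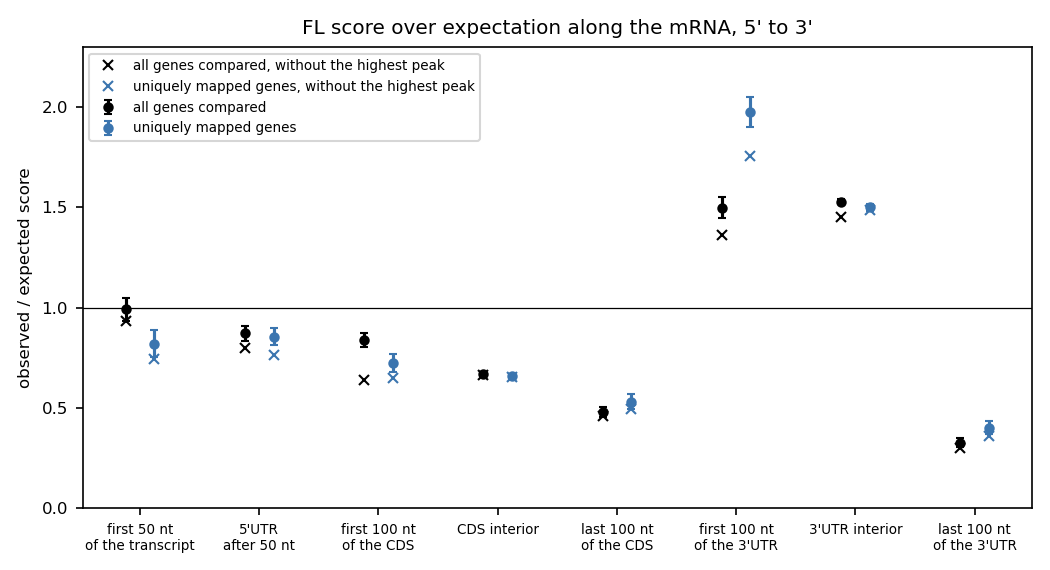
Observed over expected FL score (vertical axis) in 8 windows along the mRNA, 5' to 3'. Circles are summed score over expectation with 95% Poisson intervals, for all genes compared (black) and unambiguous genes (blue, called uniquely mapped in the key), and crosses leave out the highest peak of the window. The value steps up from 0.479 to 1.498 across the stop codon and drops to 0.327 at the 3' end.

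The favoured and disfavoured mRNAs carried their score in different regions. In genes at least 2-fold above expectation 70.7% of the score in the transcript lay in 3'UTRs, where their lengths gave 49.5%, a ratio of 1.43. In genes at least 2-fold below, 40.6% lay there against 40.0%, a ratio of 1.01, and their 5'UTRs stood at 1.61 (1.46 to 1.76). Over all genes compared, 3'UTRs held 59.7% of the score in the transcript against 41.4% expected. Most adhesion and trafficking lists shared this direction, so it does not set them apart. Lists of other functions were mixed, with 69.8% against 36.7% for DEAD and DEAH box helicases and 14.4% against 45.9% for nuclear-encoded respiratory chain mRNAs. In cadherins and catenins 3'UTRs held 85.1% against 31.2%, and in focal adhesion proteins 59.8% against 29.7%. CTNNA1 gave 60% of the cadherin and catenin score, with 323 of its 327 in the 3'UTR. For Rab GTPases the share was 89.9% against 77.1%, and for COPI and COPII coats 72.5% against 47.5%. Among the adhesion lists, integrins and collagens had less score in 3'UTRs than their lengths gave. Integrins had 17.04% in 3'UTRs against 34.5% and 69.9% in the CDS against 61.6%. In collagens the 5'UTRs held 20.6% against 2.44% expected, and the 3'UTRs 8.35% against 14.2%. Most of this 5'UTR score was that of type I collagen, with 151 in COL1A1 and 152 in COL1A2. COL6A3 had 6 of its 460 in the 5'UTR. Ribosomal protein mRNAs, low as sums, also had more score in 5'UTRs than their lengths gave. These held 20.8% against 5.52% for the large subunit and 21.0% against 7.29% for the small. Part of this lay in mRNAs above expectation, with 49 in the 5'UTR of RPLP1 and 32 in that of RPS20. The scores of the 2 lists over all regions were 616 and 329. The 3'UTRs of the 2 lists held 6.82% and 3.04%.

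The deletion lists, each set against the long-RNA input of its own line over the same genes, are given side by side with FL. They share the parental subtraction, so their values are not independent of one another. Collagens stood at 2.15 for FL, 2.16 for ΔNTR and 2.61 for ΔCTR, and focal adhesion proteins at 1.71, 1.70 and 1.57. Cadherins and catenins stood at 3.40, 2.26 and 3.35, and protrusion mRNAs at 2.52, 1.49 and 3.09, both with the single peaks of CTNNA1 and ACTB in them. Large-subunit ribosomal protein mRNAs stood at 0.278, 0.316 and 0.238, and small-subunit ones at 0.286, 0.424 and 0.291. 3'UTRs stood at 1.44, 1.40 and 1.49, CDS at 0.668, 0.695 and 0.666, and 5'UTRs at 0.910, 0.981 and 0.520.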

How the data were processed

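The study measured 18 iCLIP samples, 3 for each of 5 myc-LARP6 variants and parental U-87 MG cells, and total RNA of the 6 lines. Samples were grouped by the labels. The authors mapped iCLIP reads to GRCh38.p13 (GENCODE V42) with STAR after removing rRNA and tRNA reads with Bowtie 2, collapsed duplicates by UMI with UMI-tools, called peaks per replicate with Clippy, merged the 3 replicates and summed their scores with bedtools (version 2.30.0), and removed parental peaks. The deposited score of a peak is that sum, a whole number of at least 3, not scaled to depth. The depth of the iCLIP libraries is unknown here, and which FL peaks the parental subtraction removed was not analysed here. Input reads were trimmed with Trim Galore (version 0.6.10) and the deposited counts per gene came from STAR (version 2.7.10b), with versions as in the submitters' processing notes. The reverse-strand counts were used, 8.76 to 9.71 times the forward ones. Long-RNA inputs held 25027075 to 28692476 counts. Small-RNA inputs were not used. Some genes and lists are not reported here.

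Of 62750 gene identifiers 62625 matched GENCODE release 44, which named genes and regions here. One transcript per gene (the MANE or canonical one) gave lengths and regions. Genes were named by rule: the 10 highest scores, the 10 highest ratios, the 10 largest inputs at least 2-fold below expectation, in each list described its 2 largest inputs and its highest and lowest ratio, and 6 known targets. The members and lists were chosen with earlier results of these data known. No test was made, since replicates are pooled. The ratio was tested on simulated data. Alternatives changed the input, the minimum count, the peaks, the unit of score, the regions and the genes. Computations used Python 3.11.15, pandas 2.3.3, scipy 1.17.1 and pysam 0.24.0.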

Additional observations from a re-analysis of the deposited data

How the results depend on the processing

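Of 1156 alternative values for 107 results, 43 of those for the 9 chief results stayed within 1.5 times (counts) or the counting interval (ratios), 43 left it and 2 turned direction. No paired analysis was possible because the peak lists pool their replicates, so that single replicates could not be omitted either. The cause of a change was not tested except where the alternative compares fewer or more genes.

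With a minimum of 10000 input counts 54 genes were at least 2-fold above and 165 below, and with 500 counts 805 and 4687, since the number of genes compared changes. Lists above and below numbered 8 and 12 at 10000. Without the highest-scored gene of each list 5 lists stayed above and 32 were below. With peak number in place of score 9 lists were above and 1099 genes below. Among unambiguous genes 253 were above.

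The shortest quintile stood at 0.885 with unstranded counts, 0.807 with the mean input, 0.881 and 0.721 at 500 and 10000 counts, 0.912 with peaks above 3, 0.847 with exonic peaks, 0.647 without the highest peaks, 0.589 by peak number, 0.814 within abundance bins, 0.846 by union length, 0.901 among unambiguous genes and 0.872 without mitochondrially encoded mRNAs. The longest quintile stood at 0.904 with unstranded counts, 0.942 at 10000 counts, 0.845 with peaks above 3, 0.867 among unambiguous genes and 0.874 by union length, and turned to 1.06 without the highest peaks and 1.14 by peak number.

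5'UTRs, CDS and 3'UTRs stood at 0.969, 0.766 and 1.31 by peak number and at 0.847, 0.656 and 1.46 among unambiguous genes. CDS and 3'UTRs stood at 0.637 and 1.48 with peaks above 3, and 3'UTRs at 1.42 without mitochondrially encoded mRNAs. With all transcripts the 3 regions stood at 0.349, 0.800 and 1.42 where CDS came first, and at 0.351, 0.760 and 1.31 where the 3'UTR came first. No alternative moved the 3'UTR below 1 or the CDS above it.

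Genes whose score rests on 1 peak fell below 1 without it or by peak number: ACTB to 0 and 0.0106, HNRNPH1 to 0 and 0.182, CTNNA1 to 0.876 and 0.492, UGP2 to 0 and 0.741, and by peak number PGK1 to 0.781 and YWHAE to 0.348. ERCC1 fell to 0 with exonic peaks. Of the lists, protrusion mRNAs fell to 0.271 and 0.290 in those settings, 14-3-3 and phosphatase subunits to 0.833 by peak number, and the immediate early factors to 0.577 without FOSL1 and 0.499 among unambiguous genes. Mediator and RNA polymerase II rose to 1.29 with the mean input and cullins to 1.17 at 500 counts, both with other genes past the minimum. The comparisons of unambiguous genes and without mitochondrially encoded mRNAs were added after the data were seen.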
